A study of Mus musculus with 24 samples.

Results

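The interleukin 10 (IL-10) axis was followed in mouse bone marrow-derived macrophages (BMDMs) through 8 of the 22165 genes in the counts table. They are the cytokine genes *Il10* and *Il19*, the receptor genes *Il10ra* and *Il10rb*, the transcription factor gene *Stat3* and the target genes *Socs3*, *Nfil3* and *Sbno2*. A gene belonged to this set when its Ensembl identifier, without the version, carries one of these symbols in GENCODE M21. All 8 were in the table, and all 8 were among the 11878 genes that passed the filter on low counts.

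IL-10 binds a receptor made of IL10RA, the ligand-binding chain that holds the kinase JAK1, and IL10RB, a chain shared with other receptors of the family that holds TYK2. The receptor activates STAT3, and STAT3 turns on genes whose products restrain inflammatory transcription in macrophages. IL-19 belongs to the same cytokine family and is encoded beside IL-10, but signals through the IL-20 receptor. Lipopolysaccharide (LPS), sensed by Toll-like receptor 4, induces IL-10 in macrophages, and the cytokine acts back on the same cells.

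BMDMs came from C57BL/6N wild-type (WT) mice of a commercial breeder and from *Irg1-/-* C57BL/6N mice, aged 8 to 20 weeks per the labels, so the genotypes were not littermates. *Irg1*, now named *Acod1*, encodes the enzyme that makes itaconate. Cells were grown for 7 days with 20 ng/ml M-CSF and then left without LPS (Unstim.), given 100 ng/ml LPS for 24 h and harvested (LPS 24h), or given LPS for 24 h, fresh medium, a rest of 1 h and LPS again for 3 h (LPS 24h->LPS 3h, tolerized). LPS 3h cells (non-tolerized) went through the same steps without the first LPS, whereas LPS 24h cells had no change of medium. LPS 24h->LPS 3h thus differs from LPS 24h by the fresh medium, the rest and the later harvest as well as by the second LPS. These cannot be told apart, and differences between these groups are called the response to the second LPS for short. There were 3 independent cultures in each of the 8 groups, 24 libraries in all, and p-values measure the spread between these cultures.

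Gene counts per library ranged from 3927378 to 20430359. *Acod1*, the deleted gene, reached at most 26.4 normalized CPM (counts scaled to the library size after TMM normalization) in an *Irg1-/-* library given LPS and at least 3794 in a WT library given LPS, while in Unstim. libraries of both genotypes it held 5.82 to 11.9 and does not tell them apart. All 7 macrophage markers were in the table, and their summed level was 3100 to 9952 CPM. Markers of B cells, T and NK cells, dendritic cells and mast cells summed to at most 11.3 CPM in any library, and those of fibroblasts and endothelial cells to 25.5 to 119 CPM. In bulk libraries, fewer cells of a type and less RNA per cell cannot be told apart. A prefix of the library labels is read here as the library pool. The *Irg1-/-* LPS libraries share no pool with the *Irg1-/-* Unstim. libraries, and *Irg1-/-* LPS 24h shares none with LPS 3h, so treatment and pool cannot be told apart in those comparisons. Genotype and pool are partly mixed under LPS. Each WT LPS group came from pools 1, 2 and 4. The *Irg1-/-* libraries came from pools 2 and 3 at LPS 3h, pool 1 at LPS 24h, and pools 1 and 2 at LPS 24h->LPS 3h. Tolerized and LPS 3h *Irg1-/-* libraries thus share only pool 2.

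Of the 8 genes, 7 were induced by LPS for 3 h in both genotypes, most had fallen again by 24 h, and the same 7 were lower after the second LPS than after a first LPS of equal length. *Il10rb* passed the threshold in none of the 10 comparisons of treatments. At LPS 3h against Unstim., 7 of 8 were higher in WT cells and 7 of 8 in *Irg1-/-* cells, where 15.8% and 17% of all genes tested were called higher. The median log2 difference of the 8 genes was 2.54 and 2.42, beside −0.18 and −0.20 over all genes. At LPS 24h against LPS 3h, 7 of 8 were lower in WT cells and 6 of 8 in *Irg1-/-* cells (15.5% and 16.9% of all genes), with medians of −1.81 and −1.81 beside 0.14 and 0.15. At LPS 24h->LPS 3h against LPS 3h, 7 of 8 were lower in WT cells and 7 of 8 in *Irg1-/-* cells (13.1% and 14.1% of all genes), with medians of −1.83 and −1.86 beside 0.13 and 0.12. These comparisons of one genotype share the LPS 3h libraries.

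Fewer of the genes were past the threshold in the comparisons with LPS 24h. Against Unstim., 3 of 8 were higher at LPS 24h in WT cells, where 9.25% of all genes were called higher, and 4 of 8 in *Irg1-/-* cells, where the share was 7.31%. With LPS 24h as the reference, 1 of 8 was higher and 1 lower after the second LPS in WT cells, beside 2.46% and 1.53% of all genes. In *Irg1-/-* cells 2 of 8 were higher and 1 lower, beside 3.44% and 1.7%. The medians of the 8 genes in this response were 0.32 in WT and 0.57 in *Irg1-/-* cells, and those of all genes −0.032 and −0.065.

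**Figure D1:**
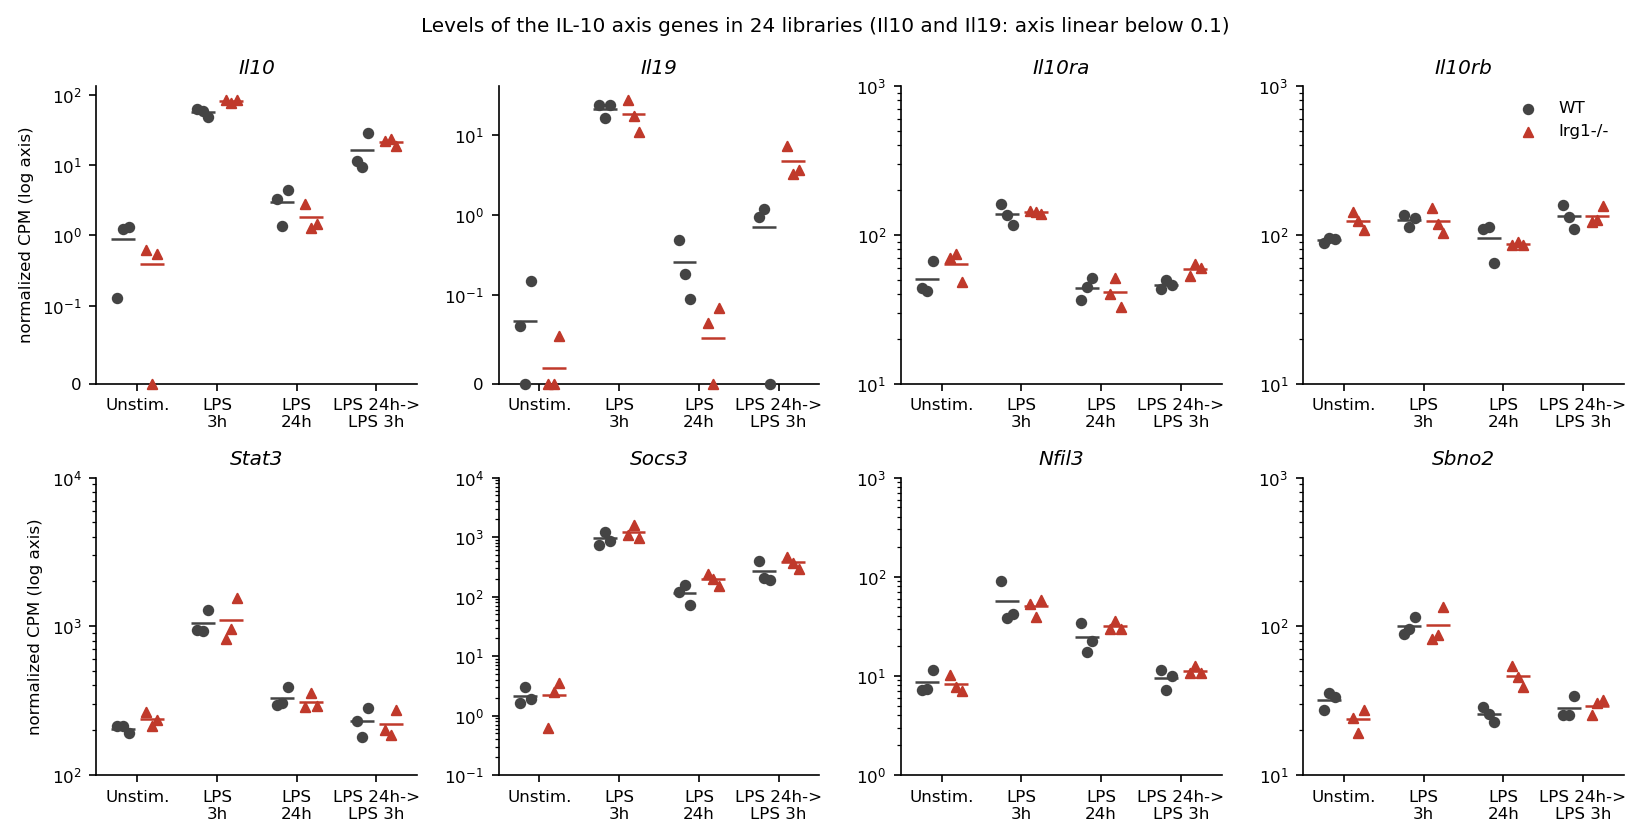
Normalized CPM (vertical log axis, linear below 0.1 for *Il10* and *Il19*) of each IL-10 axis gene in every library, by treatment. Circles are WT and triangles *Irg1-/-* cultures, and short lines are group means. Except for *Il10rb*, the group means are highest at LPS 3h in both genotypes, and *Il19* at LPS 24h->LPS 3h lies at 3.19 to 7.16 in *Irg1-/-* and at 0 to 1.17 in WT cells.

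*Il10* (ENSMUSG00000016529.5, GRCm38 chromosome 1 from 131019845 to 131024974, plus strand) encodes IL-10 itself. In WT cultures it stood at 0.129, 1.24 and 1.32 CPM in Unstim., 62.3, 60.0 and 48.2 at LPS 3h, 3.29, 1.34 and 4.49 at LPS 24h and 11.4, 9.45 and 28.5 at LPS 24h->LPS 3h. In *Irg1-/-* cultures it stood at 0.623, 0 and 0.535 CPM in Unstim., 84.3, 75.9 and 84.6 at LPS 3h, 2.84, 1.26 and 1.44 at LPS 24h and 22.3, 23.4 and 19.1 at LPS 24h->LPS 3h. Within each genotype the treatments did not overlap and came in the order LPS 3h, LPS 24h->LPS 3h, LPS 24h and Unstim., and 1 of the 3 WT cultures at LPS 24h->LPS 3h stood above the other two.

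*Il10* rose at LPS 3h, with log2 differences to Unstim. of 5.98 (SE 0.58, adjusted p = 8.63e-10) in WT and 7.5 (0.66, 1e-10) in *Irg1-/-* cells, where SE is the standard error. Tolerized cells held 29% and 26.4% of the mean LPS 3h level, differences of −1.78 (SE 0.47, adjusted p = 0.00482) and −1.92 (0.46, 0.00233). Within WT pools 1, 2 and 4 this difference was −2.43, −2.64 and −0.75, and within pool 2 it was −1.91 in *Irg1-/-* cells. The same cells lay above LPS 24h in both genotypes, which makes *Il10* the one gene of the 8 called higher after the second LPS in both, although the WT call was lost when only the compared groups were fitted (2.43, adjusted p = 0.0559).

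A small excess of *Il10* remained at LPS 24h over Unstim., 1.75 (SE 0.55, adjusted p = 0.0257) in WT and 2.03 (0.65, 0.0321) in *Irg1-/-* cells. The WT value was not past the threshold without LPS 24h replicate 1 (1.70, adjusted p = 0.0577), LPS 24h replicate 3 (1.27, 0.187) or Unstim. replicate 1 (1.21, 0.166). Both values lost the call when only the compared groups were fitted (adjusted p = 0.222 and 0.174). The *Irg1-/-* value rested on 14 counts in the 3 Unstim. libraries together, and was lost without LPS 24h replicate 1 (1.63, adjusted p = 0.161) or without Unstim. replicate 1, 2 or 3 (2.21, 1.66 and 2.43, with adjusted p of 0.0589, 0.131 and 0.0773).

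*Il19* (ENSMUSG00000016524.12, chromosome 1 from 130932656 to 130940115, minus strand) lies 79730 bases from *Il10*. WT cultures held 23.1, 16.0 and 23.4 CPM at LPS 3h, 0.487, 0.179 and 0.0955 at LPS 24h and 0.922, 1.17 and 0 at LPS 24h->LPS 3h. *Irg1-/-* cultures held 26.9, 17.0 and 10.7 CPM at LPS 3h, 0.0676, 0 and 0.0850 at LPS 24h and 7.16, 3.19 and 3.57 at LPS 24h->LPS 3h. Without LPS, the 3 WT libraries held 4 counts and the 3 *Irg1-/-* libraries 1. The genotypes overlapped at LPS 3h, whereas after the second LPS all *Irg1-/-* cultures, with 98, 44 and 47 counts, lay above all WT cultures, with 8, 12 and 0.

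*Il19* rose at LPS 3h by 7.80 (SE 0.87, adjusted p = 1.31e-08) in WT cells. It was called higher in *Irg1-/-* cells too, where 429 counts stood against 1 and the depth-corrected ratio was 601 (95% counting interval 107 to 23803). Such intervals cover counting error only and leave out the spread between cultures. The libraries carry no molecular identifiers, so PCR copies count as reads. Fitted values against so few counts depend on the count that the fit adds. In tolerized WT cells *Il19* held 3.34% of the mean LPS 3h level, a difference of −4.93 (SE 0.72, adjusted p = 5.48e-06). In tolerized *Irg1-/-* cells it held 25.5%, a difference of −1.97 (SE 0.60, adjusted p = 0.0142). That call was lost without LPS 24h->LPS 3h replicate 2 or 3 (−1.79 and −1.84, with adjusted p of 0.0667 and 0.0585), without LPS 3h replicate 1 (−1.60, 0.0799) and with the library pool as a term (−2.38, 0.0507).

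*Il19* was higher after the second LPS than at LPS 24h in *Irg1-/-* cells, with 189 counts against 3, a ratio of 81.5 (95% counting interval 27.5 to 399) and an adjusted p of 1.29e-05. In WT cells 20 counts stood against 7, and the log2 difference of 1.45 (SE 0.86, adjusted p = 0.418) was not past the threshold. Within WT pools 1, 2 and 4 it was 0.73, 1.93 and −0.63, and in *Irg1-/-* cells it was 4.00 within pool 1.

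*Il10ra* (ENSMUSG00000032089.16, chromosome 9 from 45253837 to 45269149, minus strand) encodes the ligand-binding chain. It held 117 to 160 CPM in the 6 LPS 3h libraries and 32.5 to 74.3 in all others, so no library of another treatment reached the LPS 3h range. The gene rose at LPS 3h by 1.44 (SE 0.27, adjusted p = 0.000104) in WT and 1.15 (0.27, 0.00128) in *Irg1-/-* cells, where the call was lost with the library pool as a term (adjusted p = 0.0593). Tolerized cells lay below LPS 3h again, with differences of −1.58 (SE 0.28, adjusted p = 6.81e-05) and −1.27 (0.27, 0.00072). Means of the 6 groups other than LPS 3h lay between 41.2 and 63.9 CPM, and each overlapped the next.

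*Il10rb* (ENSMUSG00000022969.13, chromosome 16 from 91406164 to 91425834, plus strand) encodes the shared chain. Its libraries spanned 64.7 to 158 CPM and its group means 86.8 to 134, each overlapping the next. The treatment differences ranged from −0.52 to 0.63 on the log2 scale, with adjusted p from 0.123 to 0.999. *Il10rb* shares exon positions with the same-strand gene *Gm21970*, which held 0 counts.

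*Stat3* (ENSMUSG00000004040.16, chromosome 11 from 100885098 to 100939540, minus strand) encodes the signal transducer of the receptor. At LPS 3h the WT cultures held 947, 924 and 1279 CPM and the *Irg1-/-* cultures 815, 959 and 1548, and all other libraries held 179 to 388. No library of another treatment came near the LPS 3h range. *Stat3* rose at LPS 3h by 2.36 (SE 0.29, adjusted p = 7.3e-08) in WT and 2.22 (0.28, 2.09e-07) in *Irg1-/-* cells. In tolerized cells it was lower than at LPS 3h, with differences of −2.18 (SE 0.28, adjusted p = 9.58e-07) and −2.33 (0.29, 2.71e-07), at 232 ± 52.2 and 221 ± 46.5 CPM (SD, n = 3), which overlapped the Unstim. libraries. *Stat3* shares exon positions with *Stat5a* on the opposite strand. The counting is not stated to use strand, so it is not known whether reads on the shared positions were counted for either gene or set aside as ambiguous. The *Stat5a* group means spanned 12.5 to 273 CPM.

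**Figure D2:**
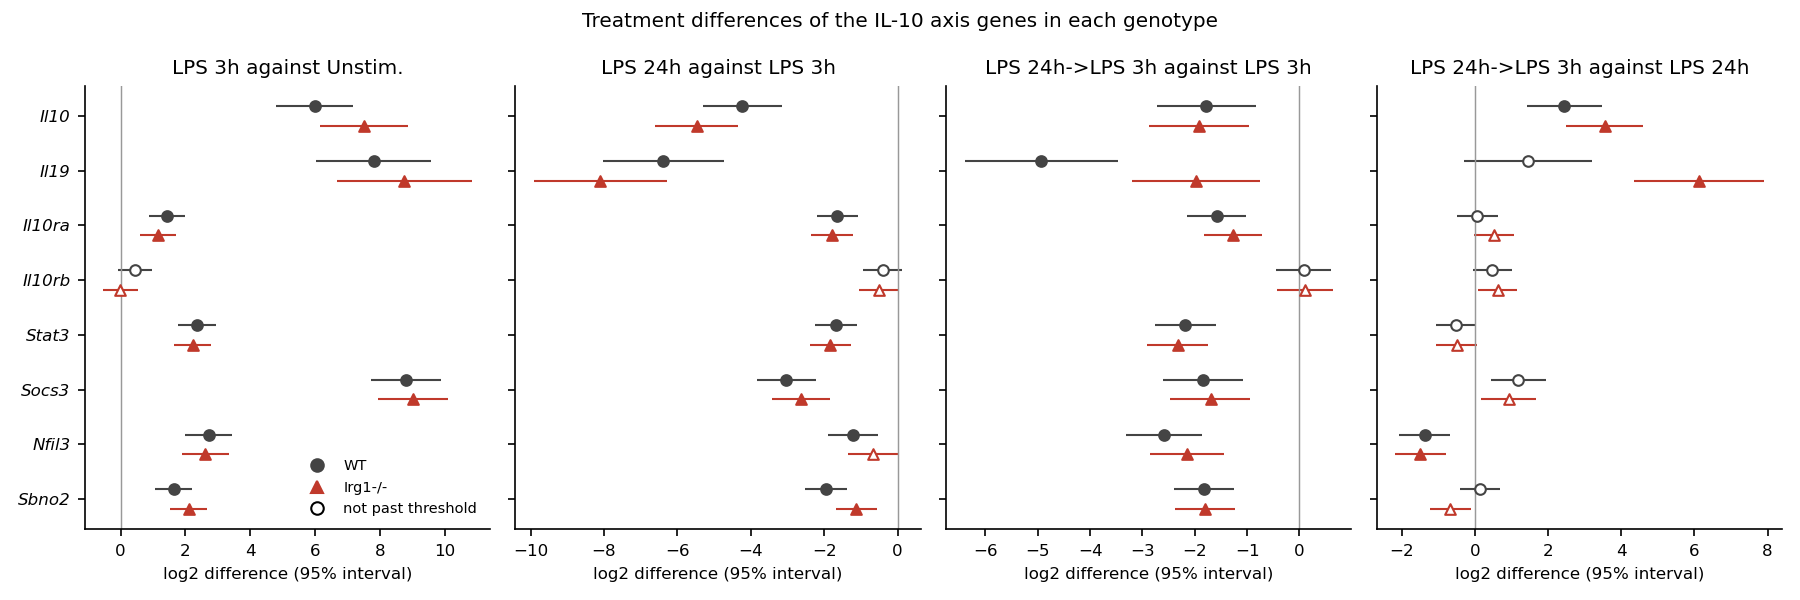
Log2 differences (horizontal axis, with 95% intervals) of the 8 IL-10 axis genes between treatments, for WT (circles) and *Irg1-/-* cells (triangles), with open symbols for values not past the threshold. All genes but *Il10rb* are past the threshold to the right of 0 at LPS 3h against Unstim. and to the left at LPS 24h->LPS 3h against LPS 3h. *Il10rb* is open throughout, at 0.45 (WT) and −0.0014 (*Irg1-/-*) for LPS 3h against Unstim. At LPS 24h->LPS 3h against LPS 24h *Nfil3* (−1.37 and −1.49) lies to the left while *Il10* lies to the right.

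The 3 target genes all rose at LPS 3h in both genotypes. *Socs3* (ENSMUSG00000053113.3, chromosome 11 from 117966079 to 117970047, minus strand) encodes an inhibitor of cytokine signalling that binds the gp130 receptor chain of IL-6 and spares the IL-10 receptor. WT cultures held 1.61, 2.96 and 1.90 CPM in Unstim., 728, 1237 and 869 at LPS 3h, 119, 156 and 72.5 at LPS 24h and 393, 207 and 190 at LPS 24h->LPS 3h. *Irg1-/-* cultures held 0.623, 2.45 and 3.53 CPM in Unstim., 1085, 1578 and 978 at LPS 3h, 242, 195 and 150 at LPS 24h and 457, 367 and 295 at LPS 24h->LPS 3h. Every LPS library lay above every Unstim. library, and within each genotype the tolerized cultures lay between LPS 24h and LPS 3h.

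*Socs3* had the largest fitted log2 difference of the 8 genes at LPS 3h, 8.79 (SE 0.52, adjusted p = 1.39e-14) in WT and 9.0 (0.53, 1.86e-14) in *Irg1-/-* cells. In *Irg1-/-* cells its rank over *Il19* (8.74, SE 1.02, on 1 count in Unstim.) depends on the count that the fit adds. The count ratio of *Il19* was 601, beside a fitted 512-fold for *Socs3*. *Socs3* also stayed highest over Unstim. at LPS 24h, by 5.76 (SE 0.46, adjusted p = 4.02e-11) and 6.37 (0.48, 2.29e-11). Tolerized cells held 27.9% and 30.7% of the LPS 3h level, differences of −1.84 (SE 0.38, adjusted p = 0.000479) and −1.70 (0.38, 0.000924), and the *Irg1-/-* call was lost with the library pool as a term (−1.42, adjusted p = 0.068). Although the cultures did not overlap, the differences to LPS 24h of 1.19 (SE 0.37, adjusted p = 0.0676) and 0.93 (0.37, 0.173) did not pass the threshold. The WT value passed it by DESeq2 (adjusted p = 0.0189), with no filter on low counts (0.0116), with the replicate block (0.0446) and without LPS 24h->LPS 3h replicate 3 (1.40, 0.0488). The *Irg1-/-* value passed it when only the compared groups were fitted (0.96, adjusted p = 0.0352).

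*Nfil3* (ENSMUSG00000056749.7, chromosome 13 from 52967209 to 52981073, minus strand) encodes a transcriptional repressor that IL-10 induces and that acts on *Il12b*. WT cultures held 7.21, 7.45 and 11.5 CPM in Unstim., 91.1, 38.6 and 42.5 at LPS 3h, 34.1, 17.5 and 22.5 at LPS 24h and 11.4, 7.21 and 10.0 at LPS 24h->LPS 3h. *Irg1-/-* cultures held 10.1, 7.73 and 6.96 CPM in Unstim., 53.1, 38.9 and 58.7 at LPS 3h, 29.4, 35.9 and 29.6 at LPS 24h and 10.7, 12.5 and 10.6 at LPS 24h->LPS 3h. After the second LPS all cultures were below every LPS 24h library, level with the Unstim. cultures in WT cells and just above them in *Irg1-/-* cells.

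*Nfil3* was the one gene of the 8 called lower after the second LPS than at LPS 24h, with differences of −1.37 (SE 0.34, adjusted p = 0.017) in WT and −1.49 (0.34, 0.00546) in *Irg1-/-* cells. Within WT pools 1, 2 and 4 the difference was −1.56, −1.26 and −1.16, and in *Irg1-/-* cells it was −1.44 within pool 1. The WT call was lost without LPS 24h replicate 1 (−1.06, adjusted p = 0.0945) and without LPS 24h->LPS 3h replicate 2 or 3 (−1.16 and −1.39, with adjusted p of 0.097 and 0.0507), and when only the compared groups were fitted (−1.38, 0.117). Its mean at LPS 24h was 43% and 63% of that at LPS 3h. It was higher than in Unstim. by 1.5 (SE 0.34, adjusted p = 0.00185) and 1.94 (0.35, 0.000128). LPS 24h lay below LPS 3h, with differences of −1.22 (SE 0.34, adjusted p = 0.00608) in WT cells, a call lost without LPS 3h replicate 1 (−0.80, 0.0759), and of −0.67 (0.33, 0.116) in *Irg1-/-* cells, which was not past the threshold. These 2 *Irg1-/-* groups share no pool, and with the library pool as a term the value was −1.45 (adjusted p = 0.0345). Against LPS 3h the tolerized cells were lower, by a log2 difference of −2.59 (SE 0.35, adjusted p = 2.12e-06) and −2.15 (0.35, 1.86e-05).

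*Sbno2* (ENSMUSG00000035673.9, chromosome 10 from 80056992 to 80105571, minus strand) encodes a transcriptional co-regulator that IL-10 induces through STAT3. WT cultures held 27.5, 35.6 and 33.3 CPM in Unstim., 89.3, 95.7 and 115 at LPS 3h, 28.6, 25.6 and 22.8 at LPS 24h and 25.5, 25.5 and 34.1 at LPS 24h->LPS 3h. *Irg1-/-* cultures held 24.3, 19.2 and 27.5 CPM in Unstim., 82.0, 87.5 and 135 at LPS 3h, 54.2, 45.9 and 39.1 at LPS 24h and 25.3, 30.3 and 32.0 at LPS 24h->LPS 3h. At LPS 24h the WT cultures were in or below the Unstim. range, while all *Irg1-/-* cultures were above it.

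*Sbno2* rose at LPS 3h by 1.64 (SE 0.28, adjusted p = 2.04e-05) in WT and 2.10 (0.28, 5.17e-07) in *Irg1-/-* cells, and tolerized cells lay below LPS 3h, with differences of −1.82 (SE 0.28, adjusted p = 1.19e-05) and −1.80 (0.28, 1.1e-05). LPS 24h against Unstim. gave 0.97 (SE 0.27, adjusted p = 0.0147) in *Irg1-/-* cells. That call was lost without LPS 24h replicate 1 (0.86, adjusted p = 0.0753), without Unstim. replicate 2 (0.82, 0.0881) and with the library pool as a term (1.08, 0.06).

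The sequence before the starts of these genes was read for TTCNNNGAA, the motif that STAT3 binds, which reads the same on both strands. RefSeq promoters (GRCm38.p6, 250 bases before each start) were matched for 5 of the 8 genes (*Il19*, *Stat3*, *Socs3*, *Nfil3* and *Sbno2*), with 7 starts in all. The motif was found before the start of *Il19*, that of *Socs3* and 2 starts of *Sbno2*, and in 7.02% of 32851 such windows of all genes. These windows are shown 5′ to 3′ on the strand of the gene, with the motif in capitals.
Il19, chr1:130940116-130940365, minus strand: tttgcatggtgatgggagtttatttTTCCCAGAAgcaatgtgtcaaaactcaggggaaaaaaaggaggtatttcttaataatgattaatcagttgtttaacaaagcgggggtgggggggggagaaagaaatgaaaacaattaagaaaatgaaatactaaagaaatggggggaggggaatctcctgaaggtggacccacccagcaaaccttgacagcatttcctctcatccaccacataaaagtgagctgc
Socs3, chr11:117969367-117969616, minus strand: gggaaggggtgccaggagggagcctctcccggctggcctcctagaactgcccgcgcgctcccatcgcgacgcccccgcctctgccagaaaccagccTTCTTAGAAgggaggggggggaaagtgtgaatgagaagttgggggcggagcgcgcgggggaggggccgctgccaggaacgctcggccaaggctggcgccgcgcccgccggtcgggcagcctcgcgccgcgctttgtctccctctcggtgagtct
Sbno2, chr10:80102703-80102952, minus strand: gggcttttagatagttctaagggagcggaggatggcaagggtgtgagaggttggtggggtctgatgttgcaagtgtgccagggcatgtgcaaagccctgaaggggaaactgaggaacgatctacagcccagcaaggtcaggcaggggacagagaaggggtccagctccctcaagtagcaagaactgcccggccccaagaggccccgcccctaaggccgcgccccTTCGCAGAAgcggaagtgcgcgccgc
Sbno2, chr10:80101188-80101437, minus strand: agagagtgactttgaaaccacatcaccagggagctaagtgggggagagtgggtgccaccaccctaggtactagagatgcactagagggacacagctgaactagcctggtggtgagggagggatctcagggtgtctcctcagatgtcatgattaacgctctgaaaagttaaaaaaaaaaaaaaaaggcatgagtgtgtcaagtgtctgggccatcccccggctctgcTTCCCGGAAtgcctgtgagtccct

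The motif lies 225 to 217 bases before the start of *Il19*, 154 to 146 before that of *Socs3*, and 26 to 18 and 24 to 16 before those of *Sbno2*. The RefSeq starts of *Socs3* and *Sbno2* used here lie inside the GENCODE gene bodies, whose ends are farther upstream. An NF-kappaB motif lies 77 to 68 bases before the start of *Il19* and 179 to 170 before another start of *Sbno2*, and 3.9% of all windows hold one. TGACGTCA, TGANTCA and TATAAA, searched on both strands, were in none of the 7 windows and in 1.55%, 6.75% and 12.4% of all. A match is a run of letters, and binding was not measured.

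The study asked what the loss of itaconate production changes in tolerized macrophages, which for the 8 genes is the comparison of genotypes. None of the 8 differed past the threshold between *Irg1-/-* and WT cells in any treatment by edgeR's quasi-likelihood test. Of all genes, 0.0421% were called in Unstim., 0.00842% at LPS 3h, 0.598% at LPS 24h and 0.118% at LPS 24h->LPS 3h. At an unadjusted p under 0.05 there were 0, 0, 2 and 1 of the 8 genes in that order, and DESeq2 called 0, 0, 1 and 1. Of the 11878 genes tested, 618, 694, 1195 and 936 had such an unadjusted p. Over all genes DESeq2 called 29, 7, 234 and 113. The median log2 differences of the 8 genes were 0.032, 0.032, −0.091 and 0.29, beside 0.0072, −0.018, −0.0086 and −0.027 over all genes.

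*Il19* in tolerized cells had the smallest p of the 8 genes. Its fitted level was 6.8-fold higher in *Irg1-/-* than in WT cells, a log2 difference of 2.76 (SE 0.68, 95% interval 1.37 to 4.16, unadjusted p = 0.000322, adjusted p = 0.105). The ratio of the counts, pooled over cultures, was 7.28 (95% counting interval 4.58 to 12.2), an interval that leaves out the spread between cultures. DESeq2 gave an adjusted p of 0.0124 and the edgeR fit with no filter on low counts 0.00544, while the fits that left out 1 culture gave 0.111 to 0.288. In those fits the log2 difference went from 2.17 (without WT LPS 24h->LPS 3h replicate 3) to 3.46 (without WT LPS 24h->LPS 3h replicate 2). It was 1.69 within pool 1 and 2.45 within pool 2, and the WT culture of pool 4, with 0 counts, had no *Irg1-/-* culture in its pool. An exact two-sided permutation test of the 3 cultures against 3 gave p = 0.1, the smallest it allows. At LPS 3h the difference of *Il19* was −0.19 (95% interval −1.37 to 0.99). At LPS 24h the *Irg1-/-* cultures lay below the WT cultures without overlap, with 3 counts in *Irg1-/-* and 7 in WT cells, a ratio of 0.243 (95% counting interval 0.0406 to 1.07) and a fitted difference of −1.91 (SE 1.09, adjusted p = 0.595).

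*Sbno2* and *Socs3* at LPS 24h were the other values with an unadjusted p under 0.05. *Sbno2* had 39.1 to 54.2 CPM in *Irg1-/-* and 22.8 to 28.6 in WT cells, without overlap, a difference of 0.85 (SE 0.27, 95% interval 0.30 to 1.41, adjusted p = 0.178). DESeq2 called it (adjusted p = 0.0288), and within pool 1 the difference was 0.68. *Socs3* differed by 0.76 (SE 0.37, 95% interval 0.0032 to 1.51, adjusted p = 0.495), with cultures that overlapped and 0.69 within pool 1.

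*Il10* at LPS 3h had 75.9 to 84.6 CPM in *Irg1-/-* and 48.2 to 62.3 in WT cells. The cultures did not overlap, but the difference of 0.52 (SE 0.45, 95% interval −0.40 to 1.44, adjusted p = 0.992) was not past the threshold. In Unstim. and LPS 24h its differences were −1.0 (−2.41 to 0.41) and −0.72 (−1.76 to 0.33), both lower in *Irg1-/-* cells. In tolerized cells the difference was 0.39 (SE 0.45, 95% interval −0.54 to 1.31, adjusted p = 0.939), with cultures that overlapped. With 1 culture left out it went from 0.11 (without WT LPS 24h->LPS 3h replicate 2) to 1.08 (without WT LPS 24h->LPS 3h replicate 3), and it was 0.88 within pool 1 and 1.22 within pool 2. The receptor genes, *Stat3* and *Nfil3* differed by −0.19 to 0.43 between genotypes over the 4 treatments.

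**Figure D3:**
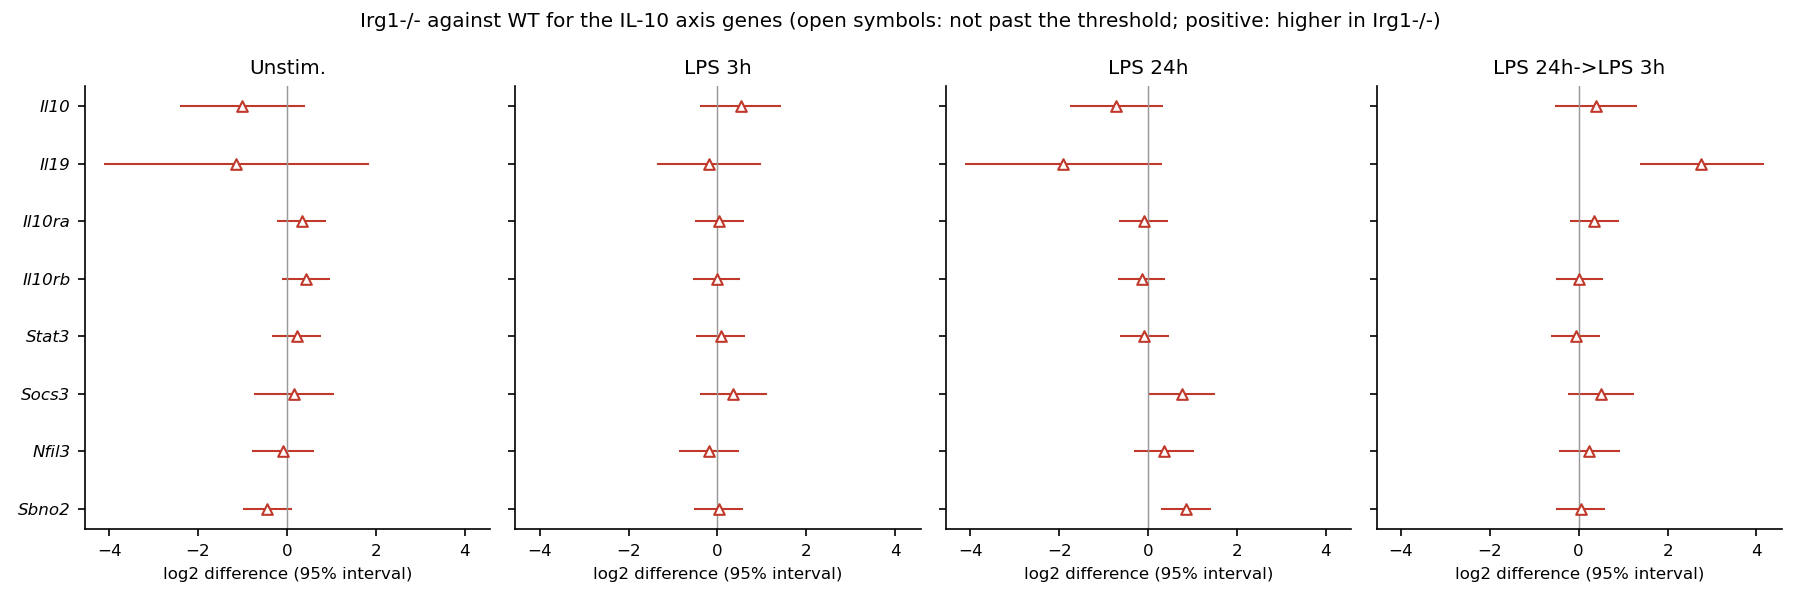
Log2 differences between *Irg1-/-* and WT cells (horizontal axis, positive where higher in *Irg1-/-*, with 95% intervals) for the 8 IL-10 axis genes in each treatment. All symbols are open, since none passed the threshold, and *Il19* at LPS 24h->LPS 3h (2.76) lies farthest from 0.

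The responses to LPS were compared between genotypes in 5 interaction tests, and none of the 8 genes passed the threshold in any of them. By edgeR, 0.00842% of all genes were called for LPS 3h against Unstim., 0.21% for LPS 24h against Unstim., 0% for LPS 24h against LPS 3h, 0% for LPS 24h->LPS 3h against LPS 3h and 0.00842% for LPS 24h->LPS 3h against LPS 24h. Listed by the same order, 0, 1, 1, 1 and 2 of the 8 genes had an unadjusted p under 0.05, and DESeq2 called 0, 0, 0, 0 and 1. Of the 11878 genes tested, 675, 967, 769, 859 and 1029 had such an unadjusted p. Over all genes DESeq2 called 1, 91, 21, 31 and 52. *Il19* was the gene that DESeq2 called.

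For *Il19*, the response to the second LPS over LPS 24h was larger in *Irg1-/-* cells by 4.67 (SE 1.31, 95% interval 1.99 to 7.36, adjusted p = 0.227), with an adjusted p of 0.0495 by DESeq2 and 0.0232 with no filter on low counts. Relative to LPS 3h, its tolerized level differed by 2.96 (SE 0.89, 95% interval 1.14 to 4.77, adjusted p = 0.383). For *Sbno2*, the response to LPS 24h over Unstim. was larger in *Irg1-/-* cells by 1.29 (SE 0.39, 95% interval 0.50 to 2.08, adjusted p = 0.231), and these 2 *Irg1-/-* groups share no pool. Part of this came from Unstim., where *Sbno2* had 23.7 CPM in *Irg1-/-* and 32.1 in WT cells. That difference was −0.44 (SE 0.27, 95% interval −0.99 to 0.12), not past the threshold. Its responses to the second LPS over LPS 24h differed by −0.81 (−1.60 to −0.028, adjusted p = 0.558), and its LPS 24h against LPS 3h differences by 0.83 (0.049 to 1.61, adjusted p = 0.718).

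Other genes of the pathway were read from lists. None of 5 other ligands of the family (*Il20*, *Il22*, *Il24*, *Ifnl2* and *Ifnl3*) passed the filter on low counts, and of 5 other receptors *Il20rb* did. Of 13 other genes known as IL-10 targets in macrophages, all tested, 6 were lower and 2 higher at LPS 24h->LPS 3h than at LPS 3h in WT cells (median −1.17), and 7 were lower and 1 higher in *Irg1-/-* cells (median −1.42). Over all genes 13.1% were lower and 12.4% higher in WT cells, and 14.1% and 13.1% in *Irg1-/-* cells. In the test of the difference between genotypes in this response, 0 of the 13 were called higher and 0 lower, beside 0% of all genes. Here and below, genes were named by the size of their difference within a genotype. A gene given for 1 genotype only is therefore not a difference between genotypes. *Pim1*, a kinase gene that STAT3 induces, went from 1700 to 141 CPM in WT cells (−3.59, SE 0.35, adjusted p = 7.75e-09). *Tnip3*, an inhibitor of NF-kappaB signalling, was lower, by a log2 difference of −2.64 (SE 0.30, adjusted p = 9.94e-08) in WT and −3.02 (0.31, 8.94e-09) in *Irg1-/-* cells. *Etv3*, which encodes a repressor, was lower in *Irg1-/-* cells, at 119 against 1059 CPM (−3.15, SE 0.31, adjusted p = 6.84e-09). *Hmox1*, the haem-degrading enzyme, went the other way, with 2.62 (SE 0.38, adjusted p = 5.63e-06) in WT and 2.73 (0.38, 2.58e-06) in *Irg1-/-* cells.

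After the second LPS, *Il4ra*, the receptor of IL-4, was lower than at LPS 24h in *Irg1-/-* cells, by a log2 difference of −1.85 (SE 0.33, adjusted p = 0.000317) and *Fcgr1*, an Fc receptor, by −1.16 (0.33, 0.0345), while *Zfp36*, whose product destabilizes cytokine mRNAs, was higher by 1.25 (0.31, 0.012). Between genotypes, 1 of the targets was higher and 1 lower at LPS 24h, beside 0.598% of all genes in either direction. *Il4ra* had 248 CPM in *Irg1-/-* and 93.1 in WT cells (1.41, SE 0.32, adjusted p = 0.031), and *Dusp1*, a phosphatase of MAP kinases, 82.9 and 237 (−1.52, SE 0.32, adjusted p = 0.0212). Both *Il4ra* values use the same *Irg1-/-* LPS 24h libraries, so they are not separate results. Those libraries all came from pool 1, and differences within a pool were not computed for *Il4ra* and *Dusp1*.

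The other SOCS genes, 7 of 7 tested, had 5 lower at LPS 24h->LPS 3h than at LPS 3h in WT and 4 in *Irg1-/-* cells, beside 13.1% and 14.1% of all genes. None was higher, and the medians were −1.94 and −2.30. *Cish*, a target of STAT5, went from 140 to 1.33 CPM in WT cells (−6.72, SE 0.56, adjusted p = 4.88e-10) and from 135 to 1.84 in *Irg1-/-* cells (−6.19, 0.53, 5.46e-10). *Socs1*, an inhibitor of interferon signalling, was higher after the second LPS than at LPS 24h in *Irg1-/-* cells, at 38.6 against 9.95 CPM (1.96, SE 0.37, adjusted p = 0.000782). Of 6 other STAT genes, 2 were lower at LPS 24h->LPS 3h than at LPS 3h in WT and 2 in *Irg1-/-* cells, beside the same 13.1% and 14.1%, with medians of −1.16 and −0.87. They were *Stat5a* (−3.28 and −2.96) and *Stat2* (−1.49 and −1.64), which carries interferon signals. *Stat5a* shares exon positions with *Stat3* on the opposite strand, and the counting is not stated to use strand.

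Regulators of *Il10* transcription, 12 of 12 tested, were mostly not past the threshold. Of the 12, 4 were lower and 0 higher at LPS 24h->LPS 3h than at LPS 3h in WT cells (median −0.54), and 4 lower and 1 higher in *Irg1-/-* cells (median −0.51). Of all genes, 13.1% were lower and 12.4% higher in WT cells, and 14.1% and 13.1% in *Irg1-/-* cells. *Map3k8*, the kinase TPL2 upstream of ERK, was lower, by a log2 difference of −2.78 (SE 0.28, adjusted p = 1.15e-08) and −2.43 (0.27, 7.18e-08), and *Rps6ka5*, the kinase MSK1, by −3.24 (0.51, 1.61e-05) and −2.47 (0.48, 0.000234). *Prdm1*, which encodes BLIMP1, was lower in WT cells, by a log2 difference of −1.39 (SE 0.36, adjusted p = 0.00506). Against LPS 24h, 2 regulators were lower after the second LPS in WT cells and 0 in *Irg1-/-* cells, beside 1.53% and 1.7% of all genes, and none was higher. In the test of the difference between genotypes in this response, 0 regulators were called higher and 0 lower. *Maf*, an activator of *Il10*, stood at 493 against 1357 CPM in WT cells (−1.46, SE 0.31, adjusted p = 0.00355), and *Jund*, an AP-1 subunit, differed by −1.70 (SE 0.47, adjusted p = 0.0342). At LPS 24h *Jund* was lower in *Irg1-/-* than in WT cells, at 111 against 427 CPM (−1.94, SE 0.48, adjusted p = 0.0491). Both *Jund* values use the same WT LPS 24h libraries, so they are not separate results. The *Irg1-/-* LPS 24h libraries all came from pool 1, and its difference within a pool was not computed.

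Of 6 receptor kinases and their phosphatases, 3 were higher at LPS 3h than in Unstim. in WT and 4 in *Irg1-/-* cells, beside 15.8% and 17% of all genes. *Ptpn2*, a phosphatase gene, went from 27.2 to 218 CPM in WT cells (3.00, SE 0.52, adjusted p = 3.23e-05). At LPS 24h->LPS 3h against LPS 3h, 1 was lower in WT and 2 in *Irg1-/-* cells, beside 13.1% and 14.1% of all genes, with medians of −0.53 and −0.78. *Ptpn1*, the phosphatase PTP1B, was lower, by a log2 difference of −0.85 (SE 0.28, adjusted p = 0.0271) and −0.93 (0.28, 0.0148), and *Tyk2* by −1.07 (SE 0.39, adjusted p = 0.0381) in *Irg1-/-* cells. Of 10 other cytokines and receptors that activate STAT3, 3 were lower and 1 higher in WT cells and 3 and 1 in *Irg1-/-* cells, beside 13.1% and 12.4%, and 14.1% and 13.1%, of all genes, with medians of −0.39 and −0.30. *Il6* was lower, by a log2 difference of −3.78 (SE 0.54, adjusted p = 3.58e-06) and −4.27 (0.55, 6.05e-07), and *Il6ra*, its receptor chain, higher by 1.0 (SE 0.30, adjusted p = 0.0135) and 1.39 (0.30, 0.000782). Against LPS 24h, 2 were higher and 1 lower after the second LPS in WT cells, and 4 and 1 in *Irg1-/-* cells, beside 2.46% and 1.53%, and 3.44% and 1.7%, of all genes. *Lif*, a cytokine of the IL-6 family, was higher by 3.17 (SE 0.79, adjusted p = 0.0161) and 4.55 (0.82, 0.000448).

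**Figure D4:**
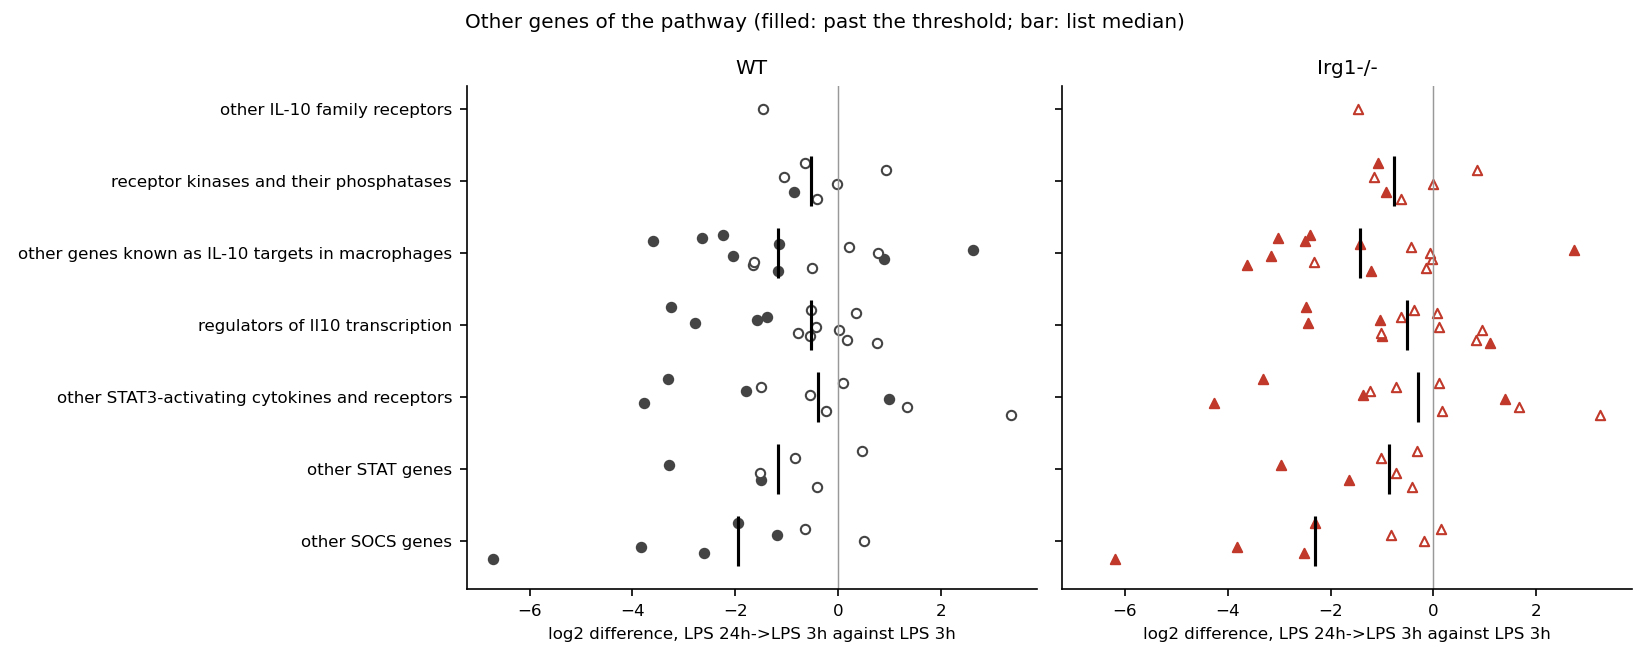
Log2 differences (horizontal axis) of other pathway genes at LPS 24h->LPS 3h against LPS 3h, 1 point per gene in the row of its list, for WT (left) and *Irg1-/-* cells (right). Filled points passed the threshold and black bars are list medians, which lie lowest for the other SOCS genes (−1.94 and −2.30).

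Markers of several cell types moved with the comparisons to LPS 3h, among them those of neutrophils and granulocyte precursors. All 7 of the latter were in the table, and their summed level was 370 to 672 CPM in the Unstim. and LPS 3h groups and 64.7 to 226 CPM in the LPS 24h and LPS 24h->LPS 3h groups. *Ly6g* and *Mpo* were at 0 in both LPS 24h->LPS 3h groups, but *Ly6g* was at 0 in *Irg1-/-* LPS 3h too and *Mpo* in WT LPS 24h. Of 6 tested, 4 were lower at LPS 24h->LPS 3h than at LPS 3h in WT and 4 in *Irg1-/-* cells, with medians of −3.93 and −3.33. Of all genes, 13.1% and 14.1% were lower and 12.4% and 13.1% higher in this comparison. Against LPS 24h, 0 were lower in WT and 1 in *Irg1-/-* cells, beside 1.53% and 1.7% of all genes. None differed past the threshold between genotypes at LPS 24h or LPS 24h->LPS 3h, beside 0.598% and 0.118% of all genes. Of 7 macrophage markers, *Itgam* (2.19 and 2.09) and *Adgre1* (1.45 and 1.04) were higher and *Mertk* (−1.66 and −1.64) lower at LPS 24h->LPS 3h than at LPS 3h in WT and *Irg1-/-* cells. Of 3 dendritic cell markers tested, *Siglech* was lower in both, from 1.33 and 4.23 CPM to 0 and 0. Of 4 fibroblast and endothelial markers, *Col1a1* was lower in both (−1.15 and −1.64) and *Col3a1* in *Irg1-/-* cells (−1.15). The B cell marker *Cd79b* was higher in WT cells, and no tested marker of T and NK cells or mast cells was past the threshold. The part of these markers in the falls of the IL-10 axis genes was not tested.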

How the data were processed

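Bulk RNA-seq of 24 BMDM libraries was analysed from 1 table. The authors made cDNA from transcript ends with oligo-dT primers that carry a barcode, amplified the mixed cDNA (12 PCR cycles), used STAR to align to mm10, and deposited raw whole-number counts per gene. The counting program, annotation and strand setting are not given in the sources used here. Since the reads are from transcript ends and carry no molecular identifiers, levels were not compared between genes and PCR copies count as reads. The 5 summary lines were left out: between 22.1% and 33.7% of a column fell on no feature, 0.254% to 0.441% was ambiguous and 15.1% to 22.5% was not uniquely aligned.

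Groups came from the labels. Counts were normalized with TMM and filtered with filterByExpr (11878 genes), and tested with edgeR's quasi-likelihood test in 1 model of the 8 groups, with Benjamini-Hochberg adjustment over all genes tested and a threshold of 0.05. Adjusted p-values come from this edgeR test except where DESeq2 is named. The SE is the log2 difference divided by the square root of F, and 95% intervals use the t distribution with the test's degrees of freedom. Count ratios carry exact binomial intervals. Log2 CPM values, used for within-pool values and correlations, have a prior count of 2. Alternatives were DESeq2's Wald test and size factors, TMM without the top 20 genes, other filters on low counts, only the compared groups, a replicate block, the library pool as a term and each culture left out. The procedure was tested on simulated data.

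The members, the gene lists and the comparisons were chosen with earlier results of these data known. Named beside the members were up to 4 genes per list and comparison with the largest difference among those past the threshold, genes within 250 kb of *Il10*, and the genes most correlated with each member. Promoter sequences are from RefSeq. Software was edgeR 4.0.16 and DESeq2 1.42.0 in R 4.3.3, and scipy 1.17.1, pandas 2.3.3 and matplotlib 3.10.9 in Python 3.11.15. The values of 1 gene of the target list, and the counts of that list for LPS 24h->LPS 3h against LPS 24h, are not reported here.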

Additional observations from a re-analysis of the deposited data

How the results depend on the processing

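Of the log2 differences of the 8 genes, 76 are given singly and were recomputed under each alternative. DESeq2's size factors, TMM factors that ignored the 20 most counted genes, and a filter that kept genes averaging 10 counts or more changed none of the 76 calls or directions. The replicate block gave *Socs3* in WT LPS 24h->LPS 3h against LPS 24h a value of 1.22 (adjusted p = 0.0446) and changed no other call. Cultures share only a number across groups, so this is not a paired design. DESeq2's Wald test added 5 calls and no filter on low counts 3. When the fit held only the groups compared, 4 calls were lost and 1 gained, and *Il10* in WT LPS 24h->LPS 3h against LPS 24h was 2.43 (adjusted p = 0.0559). With the library pool as a term, 5 calls were lost, all in *Irg1-/-* cells (*Il10ra* at LPS 3h against Unstim., *Sbno2* at LPS 24h against Unstim. and LPS 3h, *Il19* and *Socs3* at LPS 24h->LPS 3h against LPS 3h), and 2 gained, *Nfil3* in *Irg1-/-* LPS 24h against LPS 3h (−1.45, 0.0345) and *Stat3* in WT LPS 24h against Unstim. (0.96, 0.0156). Of 492 values with 1 culture left out, 16 lost a call, 1 gained one and 1 changed direction. The causes were not tested.

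Of the 8 genes, those changed in WT LPS 24h->LPS 3h against LPS 24h numbered 2, 0 with only the compared groups, and 1 to 2 with 1 culture left out, where 1 remained without LPS 24h replicate 1 or LPS 24h->LPS 3h replicate 2. In *Irg1-/-* LPS 24h against Unstim. they numbered 4, and 2 to 4 with 1 culture left out. DESeq2 called 1 gene for *Irg1-/-* against WT at LPS 24h and 1 at LPS 24h->LPS 3h, and 1 for the difference in response to the second LPS, and no filter on low counts gave 1 in each of the last 2 comparisons. *Il19* changed direction in WT LPS 24h->LPS 3h against LPS 24h within pool 4 (−0.63), and between genotypes at LPS 3h within pool 2 (0.74) and with 1 culture left out, where it ranged from −0.58 to 0.078, the latter without *Irg1-/-* LPS 3h replicate 3. Of 76 differences not given singly, 42 changed direction under some alternative and 1 passed the threshold under 1. Values of *Il19* against LPS 24h and Unstim. rest on few counts, which limits their precision.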

Other observations

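The neighbours of *Il10* did not all follow it. Of 18 annotated genes within 250 kb, *Il10* itself included, 11 were in the table and 5 were tested: *Il19*, *Il10*, *Mapkapk2*, *Eif2d* and *Rassf5*. The family members *Il20* and *Il24*, on the far side of *Il19*, held 1 and 0 counts in all 24 libraries. *Mapkapk2*, which encodes the kinase MK2 and lies 28726 bases from *Il10*, had a pattern of the same shape: in WT cells its group means were 63.5 CPM in Unstim., 686 at LPS 3h, 88.7 at LPS 24h and 232 at LPS 24h->LPS 3h. It was higher after the second LPS than at LPS 24h by 1.39 (SE 0.31, adjusted p = 0.00772) in WT and 1.94 (0.32, 0.000117) in *Irg1-/-* cells, and tolerized cells lay below LPS 3h, with differences of −1.57 (SE 0.32, adjusted p = 0.000388) and −1.05 (0.31, 0.0121). *Rassf5* went the other way, from 43.5 to 5.37 CPM at LPS 3h in WT cells (−3.03, SE 0.40, adjusted p = 3.02e-07) and from 24.3 at LPS 24h to 6.70 after the second LPS (−1.86, SE 0.38, adjusted p = 0.0026).

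The log2 CPM of the members were correlated with all tested genes over the 24 libraries, which share the 8 groups and their treatment effects, so the values describe a shared response to LPS. The genes most like *Il10* were *Cd69* (Pearson's r 0.962), *Rab11fip1* (0.961), *Il6* (0.958), *Malt1* (0.958) and *Nfkbiz* (0.958). Those most like *Il19* were *Abracl* (0.965), *Mapkapk2* (0.954), which lies on the other side of *Il10*, and *Notch2* (0.948). The genes nearest to *Stat3* were *Phf11c* (0.969), *Nfxl1* (0.964) and *Zbtb5* (0.955), and those nearest to *Socs3* were *Usp18* (0.976), *Tarm1* (0.974) and *Il1b* (0.971). *Il10ra* was nearest to *Vcam1* (0.943), *Gnb4* (0.941) and *Il23a* (0.936), *Nfil3* to *Hk2* (0.934), *Pml* (0.929) and *Cdkn1a* (0.896), and *Sbno2* to *Nsd3* (0.946), *Map3k8* (0.942) and *Bfar* (0.931). *Il10rb* had lower values, with *Siah1a* (0.784), *Grwd1* (0.771) and *Wtap* (0.77) at the top. Among the 8 genes, r was 0.915 for *Stat3* with *Sbno2*, 0.869 for *Il10* with *Il19* and 0.858 for *Il10* with *Socs3*.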
